A study of Homo sapiens with 6 samples.

Results

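A set of 10 genes of extracellular proteolysis, 4 matrix metalloproteinases (MMP7, MMP11, MMP14, MMP15), the plasminogen activators PLAU and PLAT with the receptor PLAUR, and 3 tissue inhibitors of metalloproteinases (TIMP1, TIMP2, TIMP3), were followed in SW620 cells that overexpress ELAPOR1. They were taken by gene symbol from the 60605 genes of the deposited table, and all 10 were found and passed the filter on low counts. SW620 is an established human colorectal cancer line from a lymph node metastasis. One group of 3 libraries came from cells infected with the lentiviral vector pLVX-IRES-Puro carrying ELAPOR1, and the other group of 3 from cells infected with the empty vector. Infection used a multiplicity of 20 in both groups, followed by 2 ug/ml puromycin, in medium with 10% serum. The labels do not say whether the selected cells were pools or clones, or whether the 3 libraries of a group came from separate cultures, so the p-values rest on differences among these 6 libraries alone and their spread may be technical.

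Matrix metalloproteinases are zinc enzymes that cut collagens, laminins, growth factor precursors and adhesion molecules. They are made as inactive precursors and are blocked by TIMPs, which bind the active site. Urokinase (PLAU) and tissue plasminogen activator (PLAT) turn plasminogen into plasmin, a broad serine protease that also activates some metalloproteinases. PLAUR holds urokinase at the cell surface, and inhibitors of the serpin family inactivate both activators. In colorectal tumours MMP7 is made mainly by the tumour epithelium, whereas MMP11 is known mainly from stromal cells.

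ELAPOR1 cells had more transcript of MMP7, PLAU, TIMP3 and MMP15 and less of TIMP1, TIMP2 and MMP11. MMP7 rose 2.96-fold, the largest change of the 10, while the most abundant inhibitor, TIMP1, fell by 25.8%. By edgeR's quasi-likelihood test with Benjamini-Hochberg adjustment over 16003 tested genes, 4 of the 10 were higher, 3 were lower and 3 did not pass an adjusted p of 0.05. Only MMP7, TIMP1 and TIMP2 kept their call under each alternative given below, and the groups overlapped for MMP15. Over all tested genes 21.4% passed, 10.0% higher and 11.4% lower. Groups did not overlap in CPM for 6 of the 10 genes and for 33.8% of all tested genes. The median absolute log2 fold change was 0.42 over the 10 genes and 0.14 over all tested genes. The 10 were chosen with earlier results of these data known, so their excess over all genes is not read as a result. Proteases and inhibitors did not move as blocks. Of the 4 metalloproteinases 2 were higher and 1 lower, of the activators and receptor 1 of 3 was higher, and of the TIMPs 2 were lower and 1 higher.

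The libraries held between 16401813 and 20571924 counts. ELAPOR1 itself made up 2.06% to 2.12% of the counts in its 3 libraries and at most 0.00116% in the vector libraries, as labelled. Of 10 colonic epithelial markers 9 were tested, and the 10 summed to between 8015 and 8432 CPM (counts scaled to library size with TMM factors) in vector and between 7608 and 7622 CPM in ELAPOR1 libraries, with KRT8, KRT18, KRT19, EPCAM and VIL1 the most abundant and CDX1 nearly absent at 3 counts in all. Of the 9, KRT8, KRT19, KRT20 and CDX2 were lower (-0.14, -0.45, -1.67 and -0.56 on the log2 scale) and CDH17 was higher (1.05). Among all tested genes 11.4% were lower and 10.0% higher. The endothelial, immune and kidney or neuronal lists reached at most 2.81, 8.24 and 1.23 CPM each in any library.

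**Figure D1:**
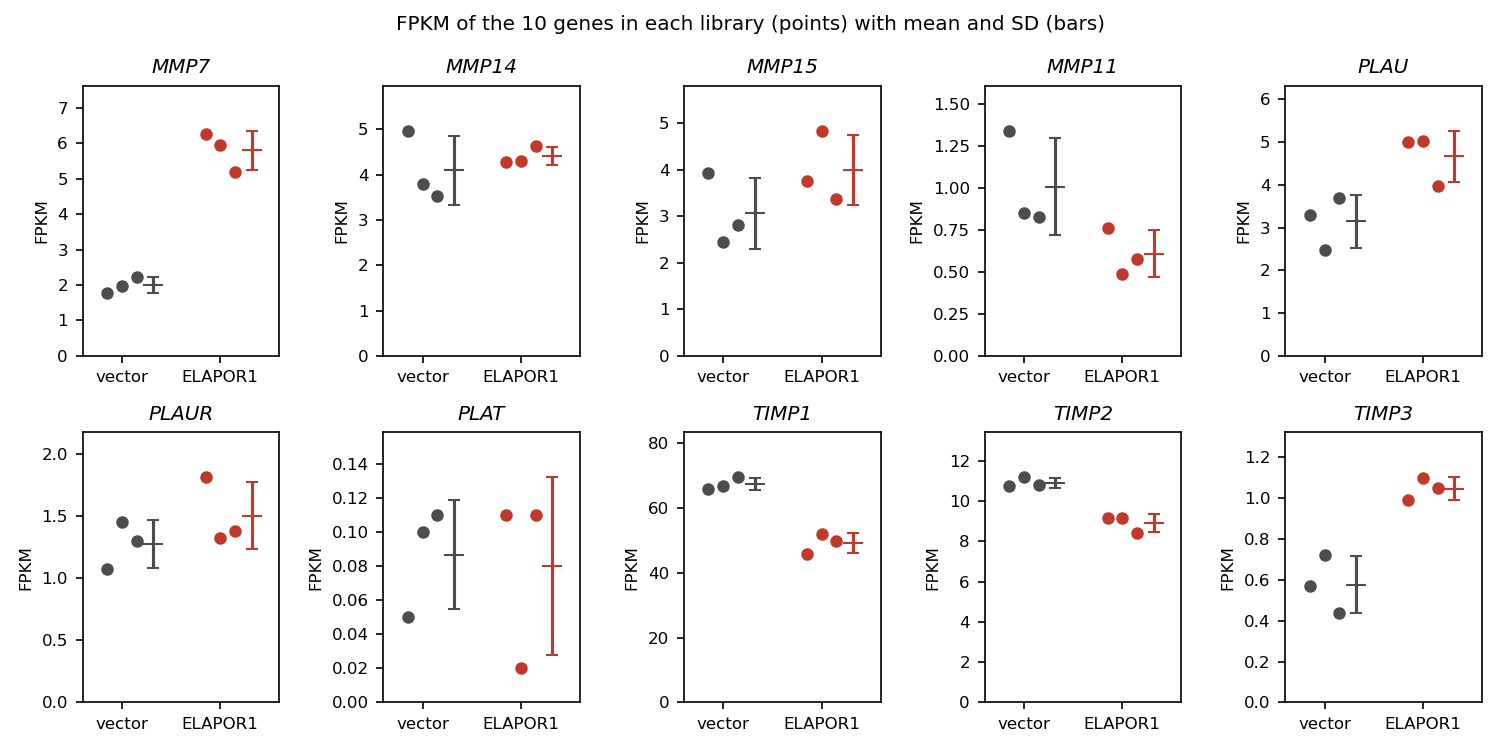
FPKM (reads scaled to exonic length and library total) of each of the 10 genes in the 3 vector and 3 ELAPOR1 libraries, as points with the group mean and SD beside them; every vertical axis starts at 0 and has its own scale. MMP7, PLAU and TIMP3 lie higher in every ELAPOR1 library and TIMP1, TIMP2 and MMP11 lower, whereas the groups overlap for MMP14, MMP15, PLAUR and PLAT.

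In vector cells the inhibitors dominated by level. TIMP1 stood at 67.3 ± 1.83 FPKM (SD, n = 3), higher than 96.7% of tested genes or level with them, and TIMP2 at 10.9 ± 0.241 FPKM. MMP14 (4.09 ± 0.762), PLAU (3.15 ± 0.619) and MMP15 (3.06 ± 0.765) followed, and neighbours among these 3 were not separated by their range over libraries. MMP7 (1.99 ± 0.226 FPKM) lay below them, then PLAUR (1.27 ± 0.191) and MMP11 (1.01 ± 0.289), which overlapped, then TIMP3 (0.577 ± 0.140) and PLAT (0.0867 ± 0.0321). In ELAPOR1 cells the order changed at MMP7, which stood at 5.80 ± 0.545 FPKM, above PLAU, MMP14 and MMP15 in mean level. TIMP3 (1.05 ± 0.0551 FPKM) stood above MMP11 (0.610 ± 0.137 FPKM), the reverse of vector cells.

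MMP7, matrilysin, is a small secreted metalloproteinase that lacks the hemopexin domain of most family members and cuts E-cadherin and other surface proteins. The gene (ENSG00000137673) lies on the minus strand of GRCh38 chromosome 11 from 102520508 to 102530750. Its counts were 80, 94 and 85 in the vector libraries and 239, 266 and 217 in the ELAPOR1 libraries. In FPKM these were 1.78, 1.97 and 2.23 against 6.26, 5.95 and 5.20, so that the lowest ELAPOR1 library stood well above the highest vector library. On the log2 scale MMP7 rose by 1.57 ± 0.14 (SE; edgeR, adjusted p = 1.35e-14). Only 0.887% of tested genes had an absolute change of at least this size. The call held when any 1 library was left out, with log2 fold changes of 1.49 to 1.65. In bulk RNA, more cells that express a gene and more RNA per cell cannot be told apart.

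RefSeq windows of 250 bases before the start that RefSeq gives were available for 8 of the 10 genes. This start can differ from that of the deposited gene: for MMP11 it is 23772849, inside the gene as the deposited table places it. The same holds for PLAUR (43670169), TIMP1 (47582436), MMP14 (22836585) and the windows of PLAU (73910610 and 73911132), and by few bases for MMP7 (102530747). Of these windows, those of MMP7, MMP14, MMP11 and TIMP3 are shown, since at most 30 of their 250 bases lay in annotated exons. These 4 genes went up, passed no test, went down and went up. The windows not shown held more exon: 123 of 250 bases for TIMP1, 188 for MMP15, and all 250 for PLAUR and each window of PLAU. Capitals mark matches, on either strand, to 6 motifs: AP-1 (TGANTCA), an AP-1 variant (TGAGTAA), TCF/LEF (CTTTGA), PEA3/ETS (AGGAAG), the GC box (GGGCGG) and the TATA box (TATAAA). The windows are on GRCh38.p14, written 5′ to 3′ on the gene's strand, at chr11:102530748-102530997 (minus), chr14:22836335-22836584 (plus), chr22:23772599-23772848 (plus) and chr22:32801455-32801704 (plus).
MMP7: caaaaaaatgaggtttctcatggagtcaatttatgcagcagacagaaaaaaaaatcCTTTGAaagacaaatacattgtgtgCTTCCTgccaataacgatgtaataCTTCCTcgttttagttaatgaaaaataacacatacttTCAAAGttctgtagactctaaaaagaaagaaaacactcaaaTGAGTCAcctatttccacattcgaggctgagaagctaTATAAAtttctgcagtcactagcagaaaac
MMP14: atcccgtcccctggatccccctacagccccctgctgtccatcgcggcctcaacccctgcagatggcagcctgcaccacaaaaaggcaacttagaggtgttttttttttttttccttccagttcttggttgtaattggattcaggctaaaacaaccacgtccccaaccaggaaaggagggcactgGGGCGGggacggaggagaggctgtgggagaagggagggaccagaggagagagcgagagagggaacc
MMP11: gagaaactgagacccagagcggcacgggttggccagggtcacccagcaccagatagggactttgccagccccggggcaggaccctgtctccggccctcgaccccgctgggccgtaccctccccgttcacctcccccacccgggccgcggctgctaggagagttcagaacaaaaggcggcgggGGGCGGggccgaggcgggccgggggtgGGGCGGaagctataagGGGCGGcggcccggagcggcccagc
TIMP3: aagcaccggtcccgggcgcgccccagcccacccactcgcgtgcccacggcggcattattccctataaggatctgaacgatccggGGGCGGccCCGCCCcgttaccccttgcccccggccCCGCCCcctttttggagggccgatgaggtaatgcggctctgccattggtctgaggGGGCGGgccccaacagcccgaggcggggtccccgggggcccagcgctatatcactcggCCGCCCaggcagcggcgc

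The MMP7 window was 33.6% G and C, where the median of 35116 RefSeq windows was 58% and 4.36% of them were as low. It held a TATA box beginning 30 bases upstream of the start, an AP-1 match at 67, TCF/LEF matches at 108 and 194 and PEA3/ETS matches at 145 and 169. Of all windows 10.7% held the TATA letters, 6.57% those of AP-1, 11.2% those of TCF/LEF and 28.7% those of PEA3/ETS. The windows of MMP14, MMP11 and TIMP3 were 56.8%, 73.2% and 72.4% G and C and held only GC boxes, 1, 3 and 5 matches, a motif present in 42.6% of windows. Among the windows not shown, those of PLAUR and PLAU lay wholly in annotated exons. That of PLAUR, which did not pass, held the AP-1 letters at 186 and PEA3/ETS at 15. PEA3/ETS letters were also in a window of PLAU, which was higher, and in that of TIMP1, which was lower. GC boxes were in the windows of MMP15, PLAU and TIMP1. A match is a match of letters and shows no binding.

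MMP14, or MT1-MMP, is a membrane-anchored collagenase that activates the precursor of MMP2 in a complex with TIMP2. It lies on chromosome 14 from 22836560 to 22849041 (plus strand). Its FPKM was 4.96, 3.79 and 3.53 in vector and 4.28, 4.29 and 4.63 in ELAPOR1 libraries, and the groups overlapped because vector replicate 1 was the highest of the 6. MMP14 changed by 0.12 (log2) with a 95% interval of -0.08 to 0.32 (edgeR, adjusted p = 0.438). With 1 library left out it lay between 0.03 (without vector replicate 3, adjusted p = 0.894) and 0.28 (without vector replicate 1, adjusted p = 0.0562), and it was 0.07 without vector replicate 2.

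MMP15, or MT2-MMP, is another membrane-anchored member, on chromosome 16 from 58025754 to 58046901 (plus strand). Its FPKM was 3.92, 2.45 and 2.82 in vector and 3.76, 4.83 and 3.38 in ELAPOR1 libraries. The groups overlapped, with vector replicate 1 above 2 of the 3 ELAPOR1 libraries. edgeR gave a log2 fold change of 0.41 ± 0.12 (SE; adjusted p = 0.00994). This call was lost with DESeq2 (adjusted p of 0.286) and in the authors' deposited table (adjusted p of 0.287). It was also lost without vector replicate 2 (0.26 on the log2 scale, adjusted p of 0.166), without vector replicate 3 (0.36, adjusted p of 0.0564) and without ELAPOR1 replicate 2 (0.24, adjusted p of 0.242).

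MMP11, stromelysin 3, is secreted in active form after cleavage by furin. It lies on chromosome 22 from 23768226 to 23784316 (plus strand), and 134, 90 and 70 counts in vector libraries stood against 64, 49 and 54 in ELAPOR1 libraries. In FPKM the vector libraries were at 1.34, 0.85 and 0.83 and the ELAPOR1 libraries at 0.76, 0.49 and 0.58, without overlap but with a narrow gap. MMP11 changed by -0.71 (log2) ± 0.22 (SE; edgeR, adjusted p = 0.0113). Without vector replicate 1, the highest library, it was -0.45 (adjusted p = 0.206), and without ELAPOR1 replicate 2 it was -0.57 (adjusted p = 0.0860).

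**Figure D2:**
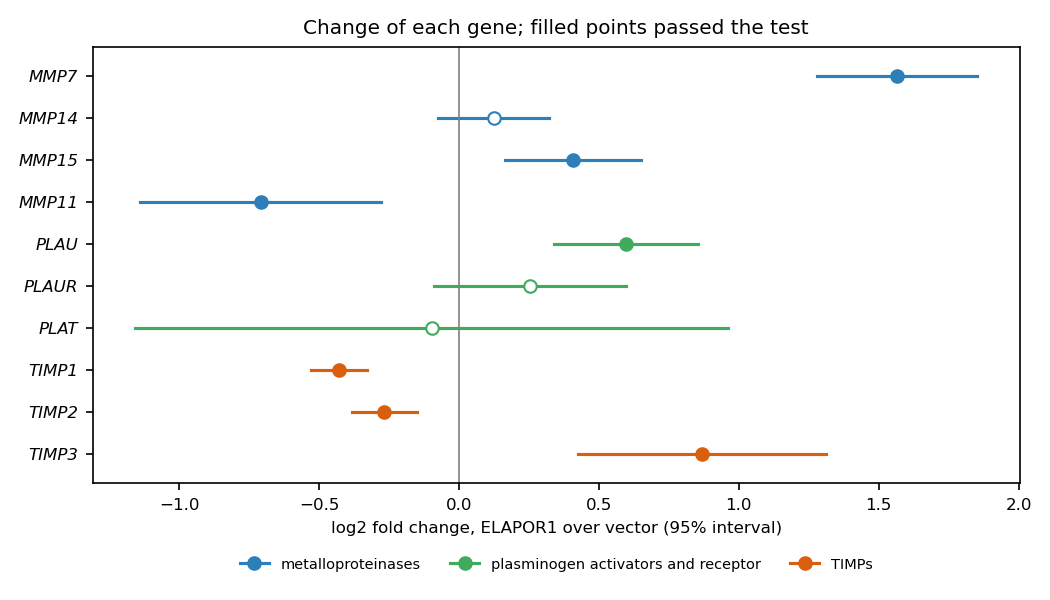
Log2 fold change of ELAPOR1 over vector (horizontal axis) with its 95% interval for each of the 10 genes, coloured by role; filled points passed an adjusted p of 0.05. MMP7 lies farthest right at 1.57 and MMP11 farthest left at -0.71, and the intervals of MMP14, PLAUR and PLAT include 0.

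PLAU, urokinase, lies on chromosome 10 from 73909177 to 73917496 (plus strand). Its FPKM was 3.30, 2.47 and 3.68 in vector and 4.99, 5.02 and 3.98 in ELAPOR1 libraries. All ELAPOR1 libraries were higher, the lowest of them by a small margin over vector replicate 3. The rise was 1.51-fold, a log2 fold change of 0.60 ± 0.13 (SE; edgeR, adjusted p = 0.00025). It remained past the threshold when any 1 library was left out, but not with limma on log2(FPKM + 1), at an adjusted p of 0.0589.

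PLAT, on the minus strand of chromosome 8 from 42174718 to 42207709, was barely detected, with 8, 16 and 14 counts in vector and 14, 3 and 16 in ELAPOR1 libraries. The log2 fold change of -0.10 had a 95% interval of -1.16 to 0.96 (adjusted p of 0.930 by edgeR), so neither a rise nor a fall near 2-fold could be told from no change at this depth.

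PLAUR, the urokinase receptor, on the minus strand of chromosome 19 from 43646095 to 43670547, did not pass. Its FPKM was 1.07, 1.45 and 1.30 in vector and 1.81, 1.32 and 1.38 in ELAPOR1 libraries, and among them ELAPOR1 replicate 1 was the single library that stood above all vector libraries. PLAUR was at 0.25 (log2) with a 95% interval of -0.09 to 0.60 (edgeR, adjusted p = 0.327). Without ELAPOR1 replicate 1 it was 0.10 (adjusted p = 0.803) and without vector replicate 1 it was 0.14 (adjusted p = 0.677). The FPKM ratio of PLAU to PLAUR was 3.08, 1.70 and 2.83 in vector and 2.76, 3.80 and 2.88 in ELAPOR1 libraries, with overlapping groups.

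TIMP1 is a secreted inhibitor of most metalloproteinases. It lies on chromosome X from 47582408 to 47586789 (plus strand), within SYN1 on the other strand, which had 16 counts in all against 9310 for TIMP1. Its FPKM was 65.91, 66.70 and 69.40 in vector and 45.68, 51.86 and 49.91 in ELAPOR1 libraries. The groups were far apart relative to their spread. TIMP1 changed by -0.43 (log2) ± 0.05 (SE; edgeR, adjusted p = 1.09e-10), and it lay between -0.47 and -0.38 when any 1 library was left out. Its RefSeq window held the AP-1 variant, shown in capitals within 30 bases at chrX:47582324-47582353 (plus strand), because it differs in its letters from the AP-1 match of MMP7; 2.21% of windows held this variant.
TIMP1: tggtgggtggaTGAGTAAtgcatccaggaa

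TIMP2, which inhibits metalloproteinases and also takes part in the activation of MMP2 by MMP14, lies on the minus strand of chromosome 17 from 78852977 to 78925387. Its FPKM was 10.74, 11.18 and 10.79 in vector and 9.17, 9.19 and 8.42 in ELAPOR1 libraries. Every ELAPOR1 library was lower, by a modest amount with little spread in either group. TIMP2 changed by -0.27 (log2) ± 0.06 (SE), a fall of 16.9% (edgeR, adjusted p = 0.000265).

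TIMP3 is the inhibitor that stays bound to the matrix and also blocks ADAM17. It lies on chromosome 22 from 32801705 to 32863041 (plus strand), within SYN3 on the other strand, which had 17 counts in all against 411 for TIMP3. Its counts were 51, 68 and 33 in vector and 75, 97 and 87 in ELAPOR1 libraries, or 0.57, 0.72 and 0.44 against 0.99, 1.10 and 1.05 FPKM. All ELAPOR1 libraries were higher, opposite to the other TIMPs. The log2 fold change was 0.87 ± 0.22 (SE; edgeR, adjusted p = 0.00215), and with limma on log2(FPKM + 1) the adjusted p was 0.0536. Of 10 fibroblast markers 4 were tested and 2 were higher, beside 10.0% of all tested genes. These were LUM (0.64 on the log2 scale) and ACTA2 (mean 0.217 CPM in vector and 0.812 CPM in ELAPOR1 libraries). COL1A1 (-0.06 on the log2 scale) and PDGFRB (0.50) did not pass. The 10 summed to between 17.9 and 19.0 CPM in vector and between 25.5 and 31.0 CPM in ELAPOR1 libraries. LUM made up most of this, and COL1A2, COL3A1, DCN and PDGFRA had 1, 1, 2 and 1 counts over all 6 libraries; their part in the result was not tested.

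**Figure D3:**
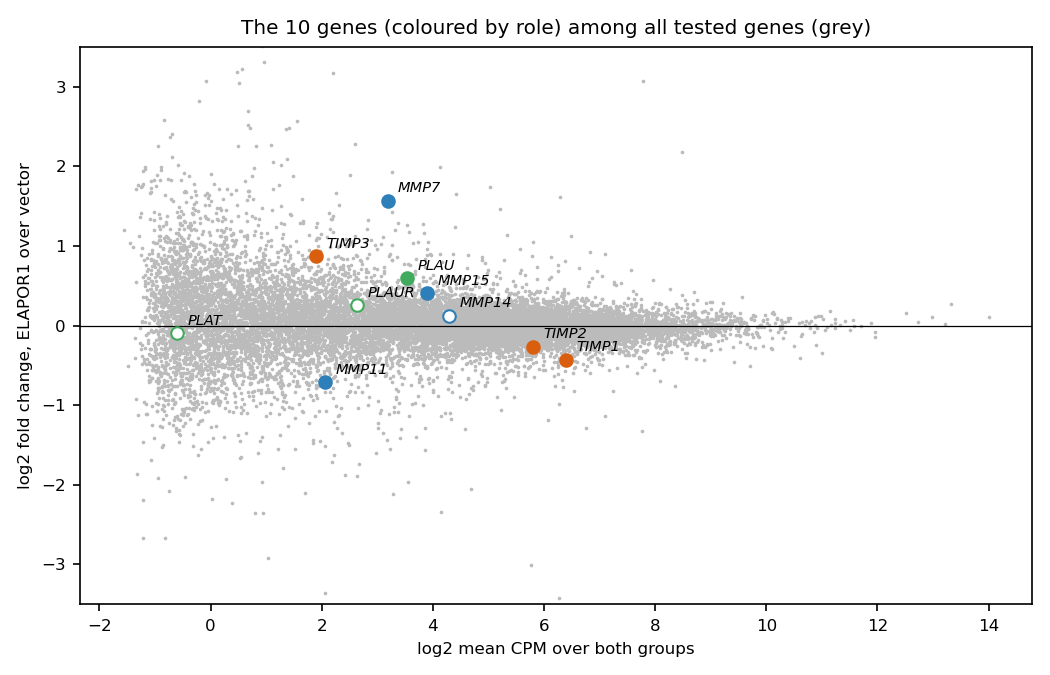
Log2 fold change of ELAPOR1 over vector against log2 mean CPM, with the 10 genes in colour (blue metalloproteinases, green activators and receptor, orange TIMPs; filled points passed the test) over all tested genes in grey. MMP7 lies near the upper edge of genes of its level; ELAPOR1 and 13 other genes beyond 3.5 in either direction are outside the axes.

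The spread between libraries differed among the genes. The coefficient of variation of CPM in vector libraries was 2.82% for TIMP1 and 2.43% for TIMP2, close to the 2.34% and 2.94% that counting alone gives. It was 24.7% for MMP15, 28.5% for MMP11 and 18.4% for MMP14, where counting gives 6.41%, 10.1% and 5.29%. In vector replicate 1 all 3 of these genes were at their highest within the vector group. For these genes the vector libraries differed by more than counting error. In ELAPOR1 libraries MMP14 was at 4.52%, where counting gives 5.24%. MMP15 and MMP11 were at 18.7% and 22.0% there, where counting gives 5.73% and 13.4%. TIMP1 and TIMP2 were at 6.15% and 4.93%, above the 2.80% and 3.33% of counting.

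Reads from genes that overlap on opposite strands cannot be told apart where counting ignores strand, and the strand setting was not stated. The partners had few counts: C10orf55 had 19 over all libraries against 1255 for PLAU, and CEP295NL, on the same strand as TIMP2, had 15 against 6168. Reads of shared stretches that the counting gave to neither gene would not show in these counts. In the authors' deposited table, made from the same libraries, 6 of the 10 genes passed an adjusted p of 0.05, all of those above but MMP15, beside 19.1% of its genes with an adjusted p.

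With metalloproteinases and TIMPs set against each other in FPKM, the balance moved toward the proteases. The 4 metalloproteinases summed to 12.0, 9.06 and 9.41 FPKM in vector and 15.06, 15.56 and 13.79 in ELAPOR1 libraries, and the 3 TIMPs to 77.22, 78.60 and 80.63 against 55.84, 62.15 and 59.38. The ratio of the sums was 0.155, 0.115 and 0.117 in vector and 0.270, 0.250 and 0.232 in ELAPOR1 libraries, a 1.94-fold higher mean with no overlap. This is a description of chosen genes and was given no test, and transcript ratios are not ratios of active protein. The rise in the mean ratio was smaller, in the same direction, with counts in place of FPKM and with TIMP1 left out of the TIMP sum. Without MMP7 the mean ratio was 1.47-fold higher (0.104 ± 0.0247 in vector and 0.152 ± 0.00677 in ELAPOR1, SD, n = 3). The lower TIMP sum in every ELAPOR1 library raises this ratio by itself. Of the metalloproteinases left in it, MMP14 and MMP15 overlapped between groups and MMP11 was lower in every ELAPOR1 library. The ratio without MMP7 therefore does not show that the other metalloproteinases rose together. The share of MMP7 in the metalloproteinase sum went from 20.1% ± 4.66 to 39.2% ± 2.09 (SD, n = 3). TIMP1 stayed the bulk of the TIMP sum, at 85.4% ± 0.610 and 83.1% ± 1.16, while TIMP3 went from 0.733% ± 0.185 to 1.77% ± 0.00236.

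The pairs MMP7 over TIMP1 and MMP14 over TIMP2 both had a higher mean in ELAPOR1 libraries, to different degrees. Not all pairs go this way: MMP11 was lower and TIMP3 higher in every ELAPOR1 library, so MMP11 over TIMP3 fell. MMP7 over TIMP1 was 0.0270, 0.0295 and 0.0321 in vector and 0.137, 0.115 and 0.104 in ELAPOR1 libraries, a 4.01-fold higher mean. MMP14 over TIMP2 was 0.462, 0.339 and 0.327 against 0.467, 0.467 and 0.550, where the groups all but touched.

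**Figure D4:**
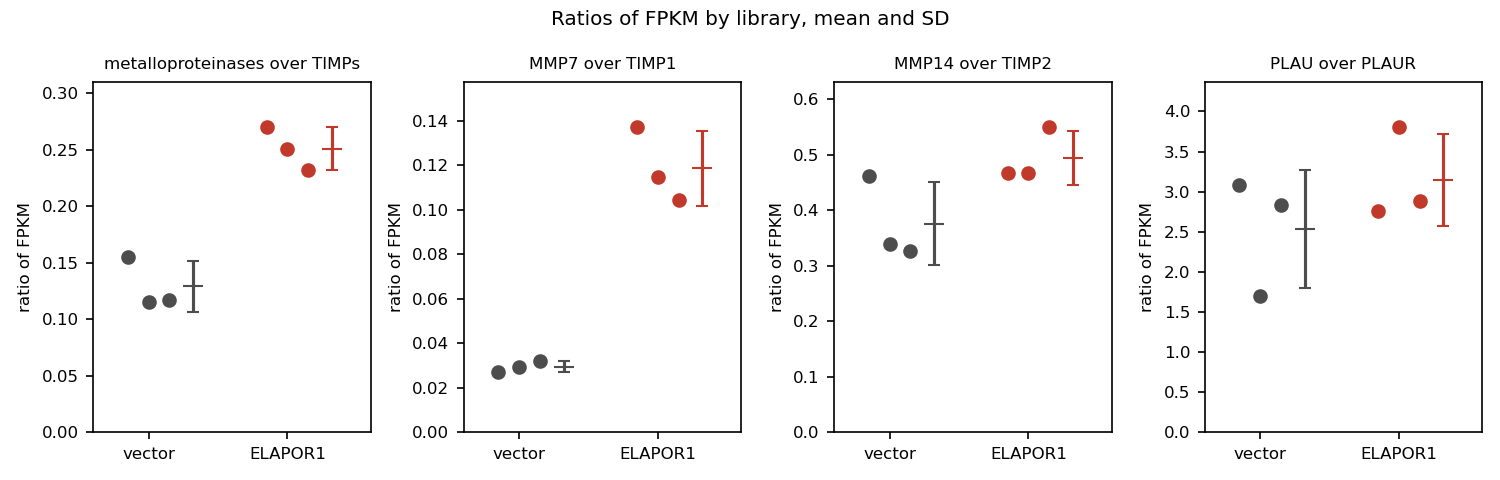
Ratios of FPKM in each library (points) with group mean and SD, for the sum of 4 metalloproteinases over the sum of 3 TIMPs, MMP7 over TIMP1, MMP14 over TIMP2 and PLAU over PLAUR; each axis starts at 0. All ELAPOR1 libraries lie above all vector libraries in the first 3 panels, by least for MMP14 over TIMP2 (0.467 against 0.462), and the groups overlap for PLAU over PLAUR.

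Of 7 inhibitors of plasminogen activation and plasmin 4 were tested, and 3 were lower and none higher, beside 11.4% and 10.0% of all tested genes. The median log2 fold change of the 4 was -0.62. SERPINI1, neuroserpin, which inhibits tissue plasminogen activator, stood at 13.15, 13.32 and 15.16 FPKM in vector and 8.39, 5.88 and 7.71 in ELAPOR1 libraries, a change of -0.90 ± 0.10 on the log2 scale (SE; edgeR, adjusted p = 8.59e-12). SERPINE2, protease nexin 1, which inhibits thrombin and urokinase, stood at 3.36, 4.01 and 3.55 against 1.96, 1.98 and 2.00 FPKM, a change of -0.86 ± 0.09 (SE; edgeR, adjusted p = 8.70e-13). In both genes every ELAPOR1 library lay well below every vector library. SERPINF2, the plasmin inhibitor, changed by -0.38 (edgeR, adjusted p = 0.00753). Without vector replicate 1 and without ELAPOR1 replicate 2 its adjusted p was 0.0769 and 0.124. A2M did not pass, at 0.32 (edgeR, adjusted p = 0.742).

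No count of plasminogen itself (PLG) was found in any library. Of its cell surface receptors ENO1, S100A10 and ANXA2 fell, by 21.6%, 20.4% and 15.2%, where 11.4% of all tested genes were lower. PLGRKT did not pass, at 0.09 (edgeR, adjusted p = 0.707). ENO1 is also a glycolytic enzyme. Among 6 clearance receptors, which take up protease and inhibitor complexes, 4 were tested and 2 were lower, beside 11.4% of all tested genes. LRP1 went from 0.893 ± 0.110 to 0.557 ± 0.0777 FPKM (SD, n = 3), a log2 fold change of -0.67 (edgeR, adjusted p = 2.41e-06), and the adjusted p was 0.112 with limma on log2(FPKM + 1). SORL1 was at -0.09 with overlapping groups (adjusted p = 0.0496), which DESeq2 did not call, at 0.427.

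Few other metalloproteinases were expressed. Of 19 other MMP genes 4 passed the filter, 12 had fewer than 10 counts over all 6 libraries and 5 had none. The gelatinase genes MMP2 and MMP9 had 6 and 31 counts in all. Of the genes listed that share the chromosome 11 cluster with MMP7, MMP1 had 9, MMP20 had 25, MMP13 had 4, MMP8 had 1, and MMP3, MMP10, MMP12 and MMP27 had none. Among the 4 tested, MMP17, MMP19, MMP21 and MMP24, none passed by edgeR. MMP19 came closest, at 0.653 ± 0.129 against 0.963 ± 0.227 FPKM (SD, n = 3), with a log2 fold change of 0.58 (adjusted p = 0.0525); without vector replicate 2 and without ELAPOR1 replicate 1 the adjusted p was 0.0417 and 0.0328. The further metalloproteinase inhibitors TIMP4 and RECK had 16 and 39 counts in all and were not tested.

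Of the 4 proprotein convertases, which remove the propeptide of MMP11, MMP14 and MMP15 among others, PCSK5 and PCSK7 rose, by 0.46 and 0.23 on the log2 scale with adjusted p of 0.000604 and 0.00155 by edgeR. Both calls were lost with limma on log2(FPKM + 1), at 0.109 and 0.127. Among all tested genes 10.0% were higher by edgeR. FURIN stood at 7.48 ± 0.608 and 7.30 ± 0.295 FPKM (SD, n = 3; edgeR, adjusted p = 0.920). Of 16 ADAM and ADAMTS genes 9 were tested, and 22.2% of these passed, near the 21.4% of all tested genes. Those that passed were the sheddases ADAM19 and ADAM10, which fell by 0.36 and 0.19 on the log2 scale. ADAM17, the target of TIMP3, did not pass, at 0.02 (adjusted p = 0.890).

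Among 13 other pericellular serine proteases and their inhibitors 10 were tested, with 2 higher and 2 lower, beside 10.0% and 11.4% of all tested genes. KLK10, a kallikrein-related peptidase, rose from 0.317 ± 0.0757 to 1.14 ± 0.250 FPKM (SD, n = 3), a log2 fold change of 1.88 (edgeR, adjusted p = 1.45e-07). TMPRSS2, a membrane serine protease, rose by 0.33 on the log2 scale. SLPI, a secreted leukocyte protease inhibitor, fell by 0.61 and TMPRSS4 by 0.84 on the log2 scale. The SLPI call was lost without vector replicate 1 or ELAPOR1 replicate 3, at adjusted p of 0.0800 and 0.0846. That of TMPRSS4 was lost with DESeq2, at 0.057, and without any of 4 libraries (vector replicates 2 and 3, ELAPOR1 replicates 1 and 2), at up to 0.132. The membrane protease ST14 and its inhibitors SPINT1 and SPINT2 were at -0.02, -0.02 and -0.01 and did not pass.

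Among 5 surface proteins that metalloproteinases cut or that induce them, CD44 rose, from 1.44 ± 0.173 to 2.65 ± 0.0351 FPKM (SD, n = 3). CDH1, E-cadherin, fell from 68.5 ± 2.07 to 39.8 ± 0.441 FPKM and SDC1, syndecan 1, by 11.6%. BSG, the metalloproteinase inducer basigin, and HBEGF, a growth factor precursor, did not pass, at -0.06 and 0.26 with adjusted p of 0.153 and 0.0503 by edgeR. Among all tested genes 10.0% were higher and 11.4% lower.

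Over all of these lists 44 of 77 genes were tested, and 5 were higher and 14 lower, beside 10.0% and 11.4% of all tested genes. Their median log2 fold change was -0.02 and their median absolute change 0.29, against 0.14 over all tested genes. The lists were chosen with results of these data known, and nothing is read from them beyond these counts.

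**Figure D5:**
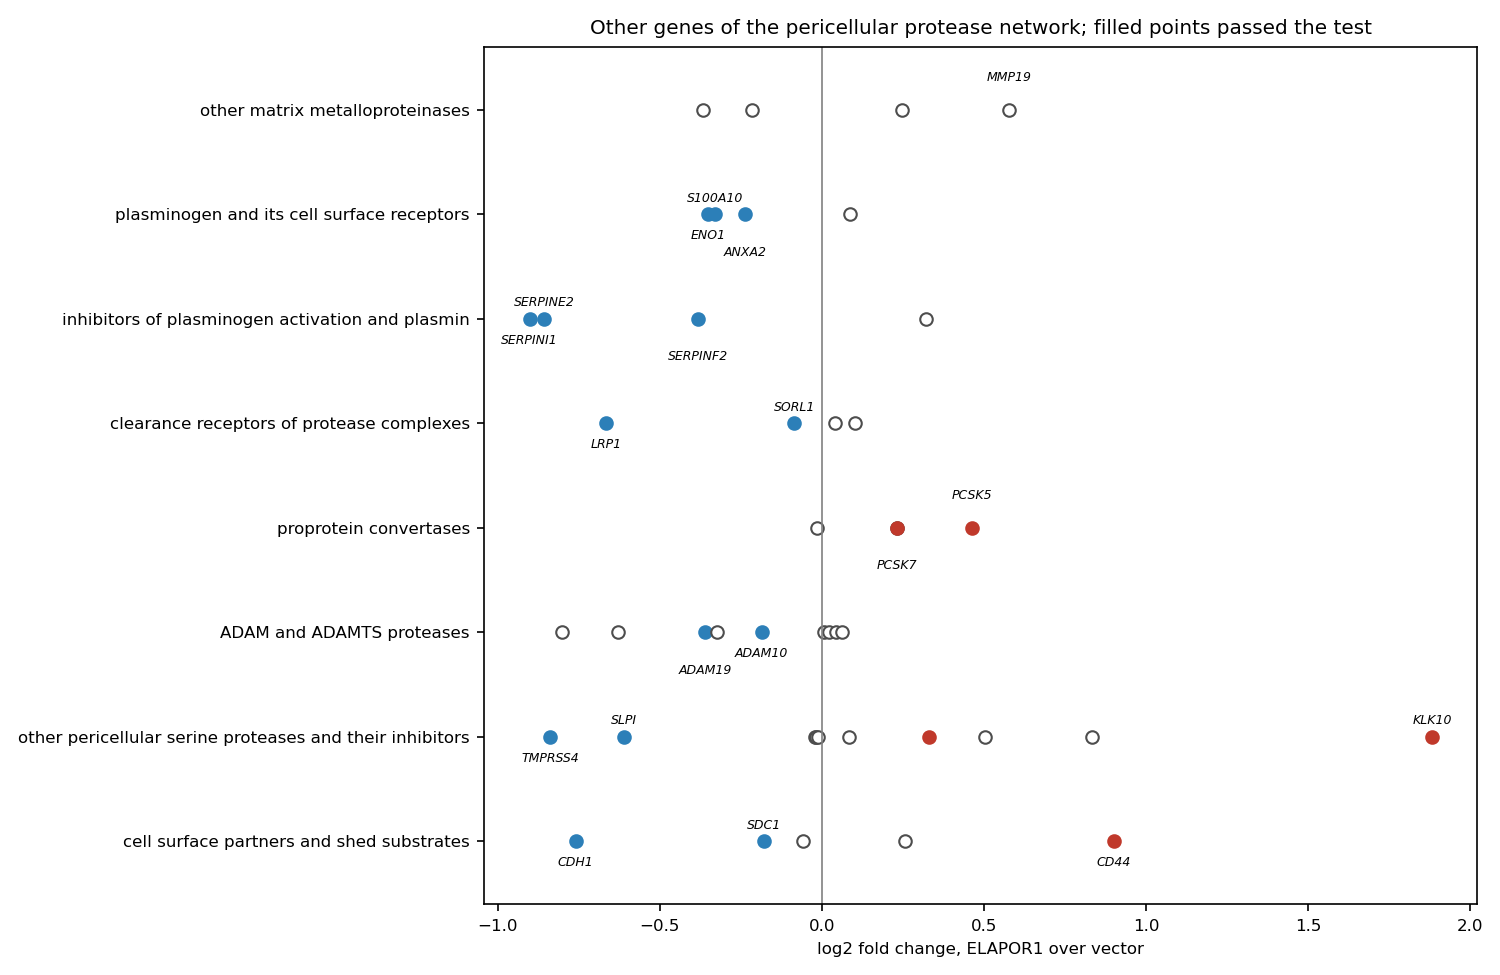
Log2 fold change of ELAPOR1 over vector for the 44 tested genes of 8 lists around the 10 genes, 1 list a row; filled red points were higher, filled blue points lower and open points did not pass. Of the 4 tested inhibitors of plasminogen activation and plasmin 3 lie to the left, with SERPINI1 at -0.90, and KLK10 lies farthest right at 1.88; the open point of PCSK6 is hidden under that of PCSK7, both at 0.23.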

How the data were processed

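Poly(A) RNA of 6 SW620 libraries was sequenced after oligo(dT) selection of 1 ug of total RNA and random priming, per the labels' protocols. The submitters' processing notes name GRCh38, HISAT2 2.0.1 and HTSeq 0.6.1, cutadapt 1.9.1 and DESeq2; the strand setting of the counting is not stated in these sources. The authors deposited raw read counts per gene and FPKM values, and each of 142222 values whose count was above 0 could be recomputed from its count, exonic length and library total to within 0.01. The deposited table of the authors' own comparison holds mean normalized counts (signal), log2 fold changes, Wald scores and p-values. The exonic lengths beside the counts are in bases. Columns K were read as ELAPOR1 and NC as negative control, with the replicate numbers of the labels.

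The test was edgeR's quasi-likelihood F test (4.0.16, R 4.3.3; low counts removed by filterByExpr, scaling by TMM, two-sided, Benjamini-Hochberg adjustment over 16003 genes, threshold 0.05). Standard errors were derived from the F statistic and the log2 change. Levels of different genes are compared in FPKM. Between libraries of a group the mean chi-square per gene was 2.43 to 3.62, above the 1 of sampling noise, and no pair was merged. Named network genes are up to 3 per list past the threshold with the largest change, or else that with the smallest p; other network genes given with values were chosen after their values were seen. Members, lists and rule were chosen with earlier results of these data known. Alternatives used DESeq2 1.42.0, limma 3.58.1, other scalings, filters and thresholds, a replicate block and 1 library left out. Calculations were tested on simulated data. A gene of the lists is not reported here.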

Additional observations from a re-analysis of the deposited data

How the results depend on the processing

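The count of 7 genes past the threshold among the 10 was 3 (1 higher, 2 lower) with limma on log2(FPKM + 1), on log2(FPKM + 0.1) and without a filter, leaving MMP7, TIMP1 and TIMP2; it was 6 with DESeq2 and 5 to 7 with 1 library left out. These 3 genes were called under each alternative run. The 7 kept their direction under all alternatives, and 4 (MMP15, MMP11, PLAU, TIMP3) lost their call under at least 1. The cause of the lower counts on FPKM was not tested. Of all genes, 3427 passed, against 2133, 2098 and 1378 in the same 3 fits (34.1%, 34.0% and 32.8% of them higher, against 46.9%), 2245 at an adjusted p under 0.01, fewer by construction, and 2723 to 3187 with 1 library left out. Of the 44 tested network genes 19 passed, against 17 of 44 with DESeq2, 13 of 36 with limma on FPKM at either added constant, 12 of 69 (3 higher, 9 lower) with limma on FPKM without a filter, and 18 to 20 with 1 library left out. The log2 ratio of metalloproteinases to TIMPs was 0.96, between 0.88 and 1.11 with 1 library left out, and 0.55 without MMP7, chosen after seeing the data. This ratio was smaller, in the same direction, with counts in place of FPKM and without TIMP1. The change of PLAT ranged from -0.45 to 0.38 with 1 library left out. With the replicate block 3361 genes and the same number, 7, of the 10 passed; the correlations between same-numbered libraries were -0.02, -0.03 and -0.02, so the numbers were not used as pairs, and the block changed no call among the members and the network genes named by rule. Depth limits PLAT, with as few as 3 counts in a library.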
